A study of Bos taurus with 8 samples.

Results

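Metallothioneins were read on the arrays by 5 probes for 4 genes, MT1A, MT1E, MT2A and MT3, among 43794 bovine embryo probes and 15227 gene symbols. The probes of these genes were found by the gene symbol of the platform's annotation. MT1E had 2 probes and the other genes 1 each, and all 5 probes were kept by the filter on dim signal, which asked for signal above the negative control spots on 4 or more arrays in either RNA. One further metallothionein, MT4, had a probe that was not kept.

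Metallothioneins are small cysteine-rich proteins that bind zinc and copper through clusters of thiols. The thiols also react with radicals, and their oxidation releases zinc into the cell. Zinc in turn activates MTF1, a transcription factor that switches metallothionein genes on, so these genes are widely used as readouts of metal load and oxidative stress.

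RNA came from pools of 10 bovine blastocysts, produced in vitro from slaughterhouse ovaries and taken at 196 hours post-fertilization. AAPH pools came from embryos cultured with 0.01 mM AAPH, an azo compound that breaks down to peroxyl radicals, from day 3 to day 5 in the second culture medium and from day 5 to day 7 in the third. Control pools came from the same sequence of media without it. There were 4 pools per treatment on 8 two-colour arrays, each carrying both RNAs in different dyes, and arrays of opposite dye were averaged as 4 swap pairs, matched by the correlation of their values because the labels give no pairing. All RNA was amplified before labelling, and the labels give no bull, ovary or culture run for any pool.

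Probes above background numbered 13954 to 34347 on an array for AAPH RNA, against 14112 to 35841 for control RNA. The Cy5 channel on slides 78 and 79 had fewer probes above background, 13954 to 19918, than the other 12 channels, with 27618 to 35841. Of the trophectoderm markers KRT8, KRT18, GATA2, TFAP2C, IFNT and DAB2 were above background on 8 of 8 arrays in both RNAs, GATA3 on 7 in both, TEAD4 on 6 for AAPH and 5 for control RNA and CDX2 on 4 and 5. The pluripotency genes POU5F1 and NANOG were above background on 8 of 8 arrays in both RNAs and SOX2 on 6 in both. The trophectoderm list had 8 of 9 negative log2 ratios of AAPH over control with a median of -0.09. DAB2, at -0.31 ± 0.29 (SD, n = 4), was its 1 gene with an unadjusted p under 0.05 (limma). By that threshold 7.84% of kept probes were lower in AAPH and 5.68% higher. The 3 pluripotency genes had a median of -0.02, which was that of SOX2. POU5F1 was at -0.18 ± 0.28 and NANOG at 0.20 ± 1.265 (SD, n = 4). NANOG went both ways, with -1.19 in swap pair 3 and 1.87 in pair 4. The 3 kept hypoblast markers had a median of 0.02, and both kept blood markers were negative. Of the hypoblast markers only PDGFRA, at 0.45 ± 0.36 (SD, n = 4), had an unadjusted p under 0.05 (limma). Markers of fibroblasts and connective tissue had positive log2 ratios of AAPH over control for 8 of 8 genes, with a median of 0.77. Their summed linear signal was 5966 to 36250 in AAPH pools and 4659 to 10330 in control pools, and each marker was above background on at least 4 arrays in both RNAs. An unadjusted p under 0.05 was reached by 8 of these 8 markers, all higher in AAPH, against 5.68% of kept probes in that direction, and an adjusted one by 0 (limma). Cumulus and granulosa markers had 5 of 6 positive ratios with a median of 0.14. PTX3 at 1.10 ± 0.91 and TNFAIP6 at 0.85 ± 0.95 (SD, n = 4) were the 2 with an unadjusted p under 0.05 (limma), against 5.68% of kept probes higher in AAPH. The 6 markers summed to 918 to 1889 in AAPH pools and 833 to 948 in control pools. The part of any of these cell types in the metallothionein values was not tested. In pooled embryos, fewer cells of a type and less RNA per cell cannot be told apart.

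MT1A had the largest difference of the 4 genes, with an AAPH signal 0.674 times that of control blastocysts, but no metallothionein passed limma's test at a Benjamini-Hochberg adjusted p of 0.05 over all kept probes. MT1A and 1 of the 2 MT1E probes were lower in AAPH in 4 of 4 swap pairs, MT3 was slightly higher in 4 of 4, and MT2A and the other MT1E probe went both ways. MT1A was well above the negative control spots on every array, whereas the MT1E, MT2A and MT3 probes lay near their level.

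MT1A encodes a metallothionein of the widely expressed class I. Its normalised log2 signal was 12.33, 11.33, 11.54 and 11.66 in AAPH pools 1 to 4, against 12.53, 12.16, 11.97 and 12.48 in the control pools of the same swap pairs. The control pool was the higher of the 2 in every swap pair, but the groups overlapped, since AAPH pool 1 lay above the control pools of pairs 2 and 3. The mean was 11.71 ± 0.43 in AAPH pools and 12.28 ± 0.27 in control pools (SD, n = 4 each). The log2 ratio of AAPH over control was -0.20, -0.83, -0.42 and -0.82 in swap pairs 1 to 4. Its mean was -0.57 ± 0.31 (SD, n = 4), a fold of 0.674 with a 95% confidence interval of 0.55 to 0.826. It did not pass over all probes with limma (adjusted p = 0.19, unadjusted p = 0.00298), and the exact sign-flip test over swap pairs (two-sided, n = 4) gave the smallest p that 4 pairs allow, which is above 0.05.

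The 2 dyes read MT1A differently. The mean log2 ratio was -1.16 over the 4 arrays with AAPH in Cy5 and 0.02 over the 4 with AAPH in Cy3, so that the dye term, -0.59, was as large as the treatment ratio itself. MT1A was lower in AAPH on 6 of 8 single arrays and higher on 2 of the 4 with AAPH in Cy3. The swap design also allows the same dye to be compared on the 2 arrays of a pair. In Cy5 the log2 signal was 12.08, 10.92, 11.30 and 11.41 in AAPH RNA, against 12.30, 11.77, 11.63 and 12.23 in control RNA of swap pairs 1 to 4. In Cy3 it was 12.57, 11.74, 11.79 and 11.91 in AAPH RNA, against 12.76, 12.55, 12.31 and 12.73 in control RNA. AAPH was thus the lower RNA in 8 of 8 comparisons within a dye, by a mean of -0.55 in Cy5 and -0.58 in Cy3, and 2.07% of all kept probes showed this. These 8 comparisons rest on the same 4 pairs of pools and are not further replicates. The 2 differences of a pair average to its swap-pair ratio by construction. The dyes are therefore not separate readings, and the result follows largely from the ratio being below 0 in 4 of 4 swap pairs, as for 10.7% of kept probes.

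**Figure D1:**
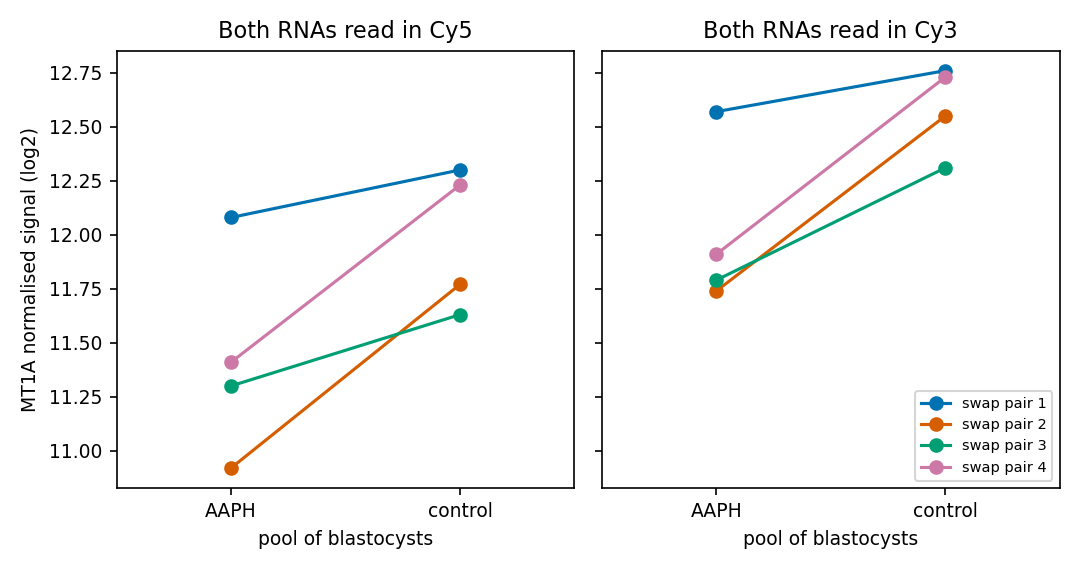
Normalised MT1A signal (log2) in AAPH pools, left in each panel, and control pools, right, with both RNAs read in Cy5 or both in Cy3; a line joins the pools of a swap pair. Every line lies lower at its AAPH end, and swap pair 1 has the smallest difference in both dyes.

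A log2 ratio as low as that of MT1A was rare among all probes: 0.413% of the 32196 kept probes were at or below it. That share was 1.06% without swap pair 2, 0.718% without pair 4, 1.09% over slides 78 and 79 and 1.00% with median foreground. Among the 14304 probes above background on all 8 arrays in either RNA it was 0.797%. It lay between 0.27% and 1.09% over all alternatives. No kept probe (0%) passed the adjusted threshold of 0.05 in limma, where 0.145 was the lowest adjusted p reached and 4354 probes (13.5%) had an unadjusted p under 0.05. An unadjusted p under 0.05 with a lower AAPH signal was reached by 7.84% of kept probes, and by MT1A and MT1E at its brightest probe, and 5.68% were higher in AAPH by the same threshold, MT3 among them. AAPH pools lay wholly below control pools for 1.09% of kept probes and wholly above for 0.829%, and for 0 of the 4 metallothionein genes. A ratio below 0 in 4 of 4 swap pairs was seen for the same pair of genes and for 10.7% of kept probes. The MT1A ratio was -0.52 over the pairs of slide 26 and -0.62 over those of slides 78 and 79, and a slide term in limma gave an adjusted p of 0.905 for their difference. That term reached an unadjusted p under 0.05 for 9.95% of kept probes and for 0 of the 4 genes. With the 8 arrays fitted singly, a dye term and the swap pair as a replicate block, MT1A passed (limma, adjusted p = 0.0491), and with neither block nor dye term it did not (adjusted p = 0.216). The block used a consensus correlation of 0.312 for all probes, not the correlation of MT1A itself, and 315 kept probes passed with it. MT1A also passed with a dye term and no block (adjusted p = 0.024), where 936 kept probes passed. This fit was added after the data were seen and counts both arrays of a swap pair as replicates. MT1E passed in that last fit (adjusted p = 0.0464) but not with the block (adjusted p = 0.095) or with neither term (adjusted p = 0.0743), and MT2A and MT3 passed in none.

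**Figure D2:**
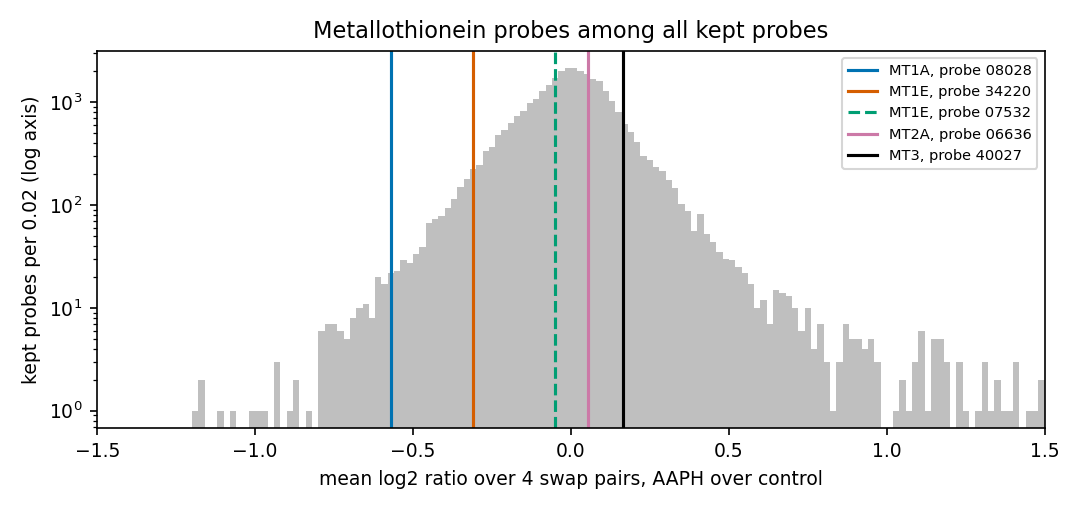
Histogram of the mean log2 ratio of AAPH over control for all kept probes (log axis for counts; 18 probes beyond 1.5 in size are not drawn), with a line for each metallothionein probe. MT1A stands in the left tail at -0.57, and the other 4 probes lie between -0.31 and 0.17.

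MT1E is another class I symbol, and its 2 probes did not give the same picture. Probe EMBV3_34220 had log2 signals of 7.63, 7.33, 7.06 and 7.09 in AAPH pools 1 to 4, against 8.14, 7.69, 7.31 and 7.21 in control pools. The control pool was the higher in every swap pair, while the groups overlapped, and pools 1 were the highest of both groups. The log2 ratio was -0.31 ± 0.17 (SD, n = 4), a fold of 0.807 with a 95% interval of 0.703 to 0.927, and did not pass (limma, adjusted p = 0.245). It was below 0 on 8 of 8 arrays, which 1.98% of kept probes were. The largest difference lay in swap pair 1, at -0.51, and the smallest in pair 4, at -0.11, an order unlike that of MT1A, whose smallest difference lay in pair 1.

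Probe EMBV3_07532 of MT1E had log2 signals of 7.45, 7.32, 7.33 and 7.45 in AAPH pools, against 7.34, 7.49, 7.31 and 7.61 in control pools. AAPH was higher in swap pairs 1 and 3 and lower in pairs 2 and 4. The log2 ratio was -0.05 ± 0.14 (SD, n = 4; limma, adjusted p = 0.805), with a 95% interval of -0.23 to 0.13. The ratio of EMBV3_34220 was below that of EMBV3_07532 in 3 of 4 swap pairs, by a mean of -0.26 ± 0.28 (SD, n = 4), and 4 pairs are too few for an exact test of this difference to pass. The 2 probes had nearly the same mean log2 signal, 7.43 and 7.41, so the choice of the brighter one as the value of the gene was narrow. With both averaged, MT1E had a log2 ratio of -0.18. RefSeq (ARS-UCD2.0) has 3 genes with MT1E as synonym: MT1A itself, LOC768319 and LOC613358. The probe table gives no accession, so which of these related loci each MT1E probe reads is uncertain, and whether the MT1A probe shares signal with them was not tested.

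**Figure D3:**
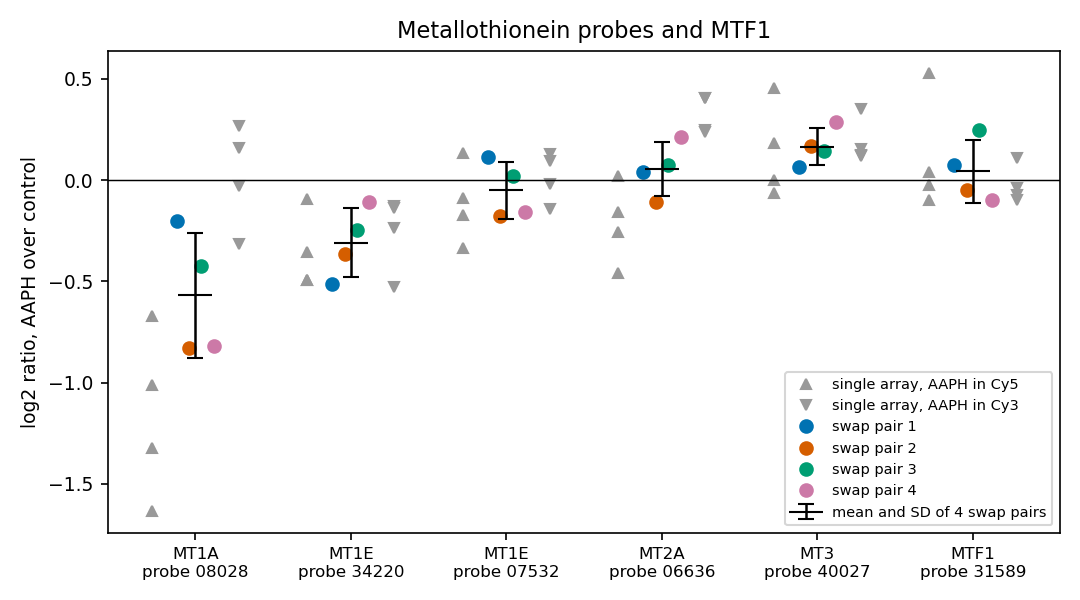
Log2 ratio of AAPH over control for each metallothionein probe and for MTF1: coloured points are swap pairs, grey triangles single arrays by the dye of AAPH RNA, and bars the mean and SD of 4 swap pairs. The triangles of MT1A separate by dye (-1.16 against 0.02 on average), and all swap pairs of MT1A and of probe EMBV3_34220 of MT1E lie below 0.

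MT2A encodes the class II protein. Its log2 signal was 7.39, 7.17, 6.98 and 7.15 in AAPH pools, against 7.35, 7.28, 6.90 and 6.94 in control pools, and the groups overlapped throughout. The log2 ratio was 0.06 ± 0.13 (SD, n = 4; limma, adjusted p = 0.771), higher in 3 of 4 swap pairs, with a 95% interval of -0.12 to 0.23. MT2A also showed a dye difference, with mean ratios of -0.21 over arrays with AAPH in Cy5 and 0.32 over those with AAPH in Cy3. Its ratio changed sign to -0.03 over the pairs of slide 26.

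MT3, a form best known from the brain, had log2 signals of 7.08, 7.24, 7.32 and 7.56 in AAPH pools, against 7.02, 7.08, 7.18 and 7.28 in control pools. AAPH was the higher in every swap pair, as for 11.5% of kept probes, by 0.06 to 0.29, and the groups overlapped. The log2 ratio was 0.17 ± 0.09 (SD, n = 4), a fold of 1.12 with a 95% interval of 1.00 to 1.25, and did not pass (limma, adjusted p = 0.36). Pools 1 were the lowest of both groups, opposite to probe EMBV3_34220 of MT1E. Over the 8 pools the 2 probes had a Pearson r of -0.83, as a description of pools that share their arrays in pairs.

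The distance from background sets how much each of these values can say. MT1A signal was 13.9 to 57.8 times the median negative control in AAPH RNA (median 20.9) and 29.7 to 77.0 times in control RNA (median 51.7). The medians in AAPH and control RNA were 1.46 and 1.85 times the negative controls for EMBV3_34220, 1.60 and 1.83 for EMBV3_07532, 1.40 and 1.43 for MT2A, and 1.43 and 1.40 for MT3. Of the 80 readings of the 5 probes, 12 were not above background, none of them for MT1A. All 12 lay in the Cy5 channel of slides 78 and 79, where fewer probes were above background. These readings were not always the lower ones relative to the negative controls. In AAPH RNA in Cy5, EMBV3_07532 failed at 1.66 times on slide 79 and passed at 1.37 times on slide 26. Against the dark corner spots, a threshold added after the data were seen, MT1A stayed above background on 8 of 8 arrays in both RNAs, and each other probe on 5 arrays for AAPH RNA and 5 or 6 for control RNA. MT4, known from stratified epithelia, was above background on 1 array for AAPH RNA and 3 for control RNA, and its ratio of -0.12 ± 0.15 (SD, n = 4) was not tested.

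**Figure D4:**
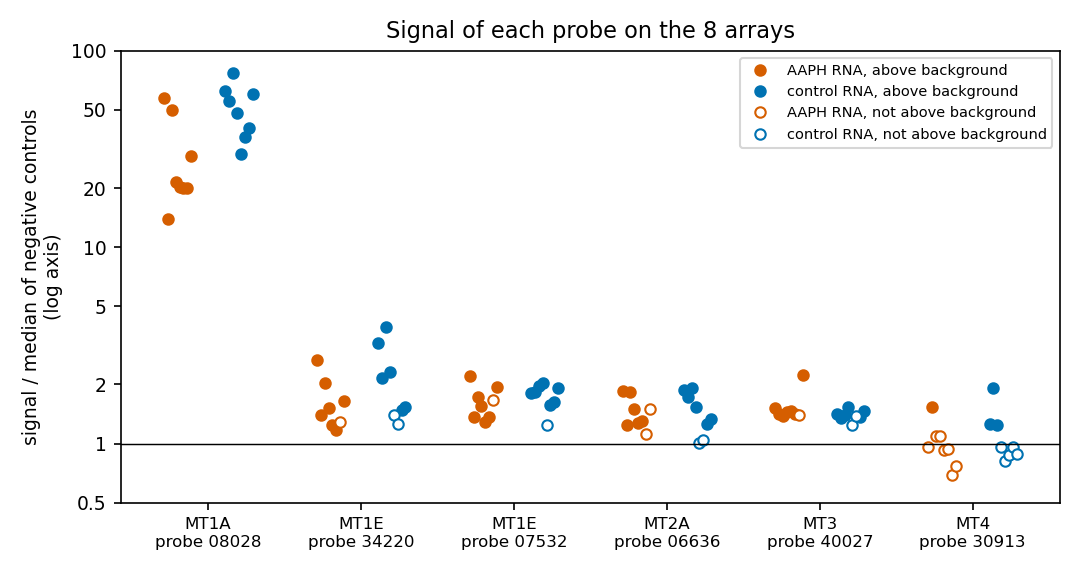
Background-subtracted signal of each metallothionein probe on the 8 arrays, divided by the median of the negative control spots in the same channel (log axis); filled points were above background and open points were not. AAPH and control RNA stand side by side for each probe, and heights are not comparable between probes. MT1A lies at 13.9 times the negative controls or more, and the other member probes below 4 times.

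The 4 genes had a median log2 ratio of -0.13, between -0.57 and 0.17, beside a median of 0.00 over all kept probes. Their median was -0.24 over slide 26, -0.02 over slides 78 and 79 and -0.06 with all kept probes of a gene averaged. In RefSeq the metallothionein genes follow each other in the order MT1A, LOC768319, LOC613358, MT2A, MT3 and MT4. The nearest named genes on either side with a kept probe did not pass. SLC6A2, a noradrenaline transporter, was at -0.12 ± 0.16, CES1, a carboxylesterase, at 0.07 ± 0.10, BBS2, a ciliary protein, at 0.17 ± 0.18, OGFOD1, a ribosomal hydroxylase, at 0.03 ± 0.24 and NUDT21, a polyadenylation factor, at 0.29 ± 0.38 (SD, n = 4). The signs of SLC6A2, CES1, OGFOD1 and NUDT21 changed between alternative settings.

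The zinc sensor MTF1 had log2 signals of 7.10, 7.10, 7.53 and 7.23 in AAPH pools, against 7.03, 7.15, 7.28 and 7.33 in control pools. These overlapped, and the log2 ratio was 0.04 ± 0.15 (SD, n = 4; limma, adjusted p = 0.844), above 0 in 2 of 4 swap pairs, with a sign that turned without swap pair 3. The MTF1 probe was dim, with medians of 1.41 and 1.49 times the negative controls in AAPH and control RNA. It was above background on 6 and 7 of 8 arrays, so its ratio can say little.

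Zinc transporters did not pass either, and lay on both sides of 0. Of 24 listed genes 23 had a probe and 21 a kept one, 11 with a positive and 10 with a negative ratio and a median of 0.06. An unadjusted p under 0.05 was reached by 1 gene lower and 3 genes higher in AAPH, against 7.84% and 5.68% of all kept probes. SLC30A2, which loads zinc into vesicles, had log2 signals of 11.33, 11.10, 9.98 and 10.56 in AAPH pools, against 12.00, 11.41, 10.27 and 11.41 in control pools. Like MT1A it was lower in AAPH in 4 of 4 swap pairs with overlapping groups, at -0.53 ± 0.28 (SD, n = 4; limma, adjusted p = 0.189), but its other kept probe was at 0.02 ± 0.16. On 8 single arrays with no block it passed without a dye term (limma, adjusted p = 0.0369) and with one (adjusted p = 0.0254), but not with the replicate block (adjusted p = 0.0553). Fits with no block count both arrays of a swap pair as replicates. Of the 32196 kept probes 368 passed in them without a dye term and 936 with one.

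SLC39A13, a zinc carrier of intracellular membranes, had log2 signals of 9.03, 8.74, 8.79 and 7.83 in AAPH pools, against 8.36, 7.82, 8.09 and 7.70 in control pools. It was higher in AAPH in 4 of 4 swap pairs, at 0.60 ± 0.34 (SD, n = 4; limma, adjusted p = 0.192), and pool 4 was the lowest of both groups. It passed in each fit on 8 single arrays (limma, adjusted p = 0.0218 to 0.0414), in which 315 to 936 of the 32196 kept probes passed. Those with no block count both arrays of a swap pair as replicates. SLC39A8, an importer of zinc and manganese, was at 0.43 ± 0.38, with 0.97 in swap pair 1 and 0.13 to 0.41 in the others. SLC39A9 was at 0.20 ± 0.09, while its 2 other kept probes were at 0.02 ± 0.11 and -0.39 ± 0.43. SLC30A1, which exports zinc and is a known MTF1 target, was at -0.06 ± 0.17 and was singled out after its value was seen.

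**Figure D5:**
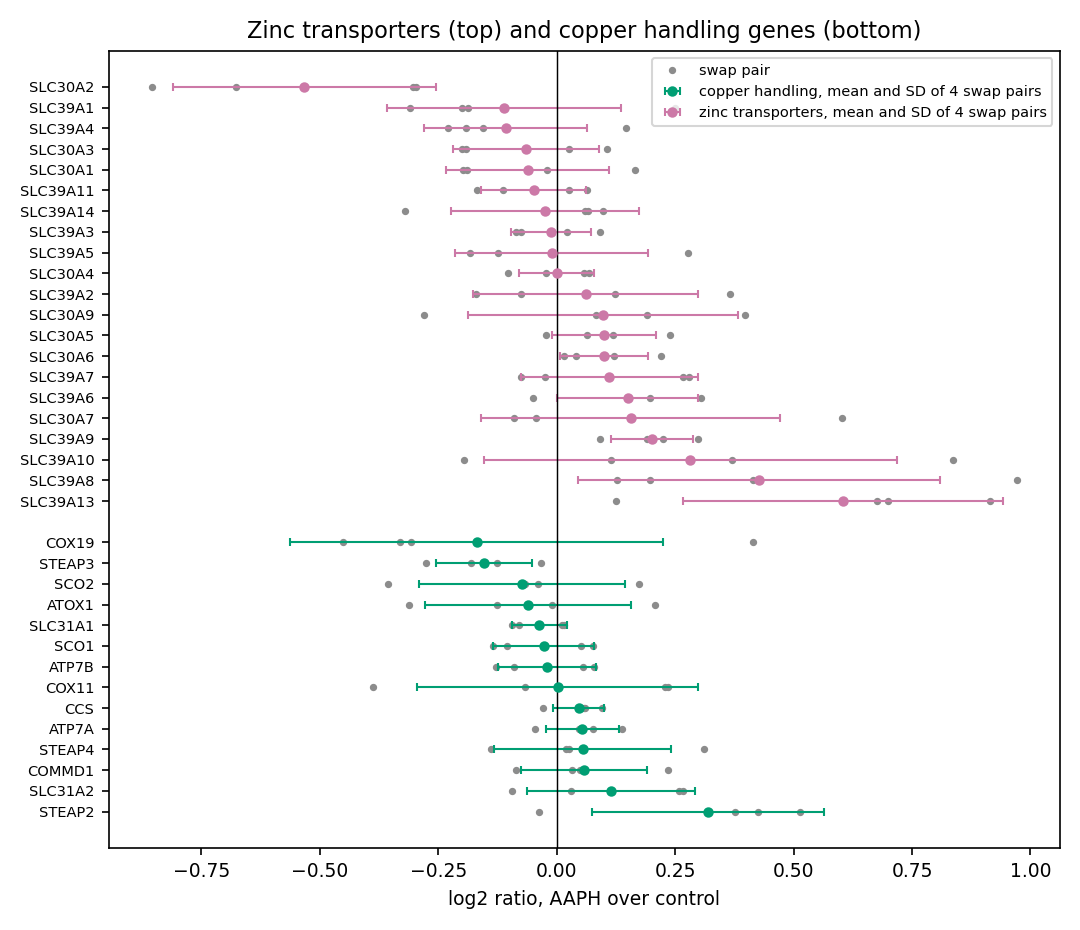
Log2 ratio of AAPH over control for each zinc transporter (top) and copper handling gene (bottom) at its brightest kept probe: grey points are swap pairs, and coloured points with bars the mean and SD of 4 swap pairs. Means spread on both sides of 0 in both lists, from SLC30A2 at -0.53 to SLC39A13 at 0.60.

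Of 16 listed copper handling genes 14 had a kept probe, 7 positive and 7 negative, lying between -0.17 and 0.32 around a median of -0.01, and none passed. STEAP2, a metal reductase, was at 0.32 ± 0.24 (SD, n = 4; limma, adjusted p = 0.293) and above 0 in 3 of 4 swap pairs. STEAP3, an iron reductase, was at -0.15 ± 0.10 and below 0 in 4 of 4, with other kept probes at -0.04 and 0.04. SLC31A2, a copper transporter, was at 0.12 ± 0.18. COX19, which serves cytochrome oxidase assembly, was at -0.17 ± 0.39. It had 0.41 in swap pair 1 and -0.45 to -0.31 in the others, and its sign turned over slide 26. Both STEAP2 and COX19 were dim. Their medians in AAPH and control RNA were 2.31 and 2.13 times the negative controls for STEAP2, and 1.55 and 2.15 for COX19.

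NRF2 targets and glutathione genes, which share an oxidative stress response with the metallothioneins, had 13 kept genes of 15, with a median of 0.03, and 0 had an unadjusted p under 0.05, against 13.5% of all kept probes. Those of smallest p were the glutathione reductase GSR at 0.21 ± 0.25, the sulfiredoxin SRXN1 at 0.16 ± 0.16, thioredoxin (TXN) at 0.13 ± 0.15 and the ferritin chain FTH1 at 0.12 ± 0.15 (SD, n = 4). The other kept FTH1 probe was at -0.33 ± 0.34, and the signs of GSR and FTH1 changed between alternatives.

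Among the 7358 named probes above background on all arrays in both RNAs, those whose log2 level over the 8 pools was most like that of MT1A were MAD2L2, a subunit of a DNA polymerase complex (Pearson r = 0.96), VANGL1, a planar polarity protein (r = 0.95), and UNC13B, a vesicle priming factor (r = 0.95). Their log2 ratios were -0.55 ± 0.38, -0.27 ± 0.17 and -0.50 ± 0.44 (SD, n = 4), and none passed. The most alike were SMEK2, BIRC5 and ATIC for MT1E (r = 0.96 to 0.97), APH1A, SORD and TPM4 for MT2A (r = 0.95 to 0.97) and OPA1, NVL and SPAST for MT3 (r = 0.96 to 0.97). The 8 points share arrays in pairs and number far fewer than the probes searched, so these are descriptions only. Between members, levels over the 8 pools had r of 0.63 for MT1A with EMBV3_34220, 0.51 with EMBV3_07532, 0.29 with MT2A and -0.59 with MT3, and the 2 MT1E probes had -0.11 with each other.

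The authors' deposited table of log2 ratios, read as AAPH over control, gave the metallothioneins the same signs. In the authors' deposited table MT1A was below 0 on 6 of 8 arrays, with a lowest value of -1.67, a median of -0.48 and a highest of 0.30. Probe EMBV3_34220 of MT1E was below 0 on 8 of 8 arrays of the authors' deposited table, between -0.42 and -0.11, and EMBV3_07532 on 4. MT2A was below 0 on 4 arrays and MT3 on 2 in the authors' deposited table, with medians of 0.08 and 0.15.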

How the data were processed

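Per the file headers, the deposited scanner files give linear intensity values per spot and dye (mean and median foreground, local background); the 14 lines of column statistics in each file were left out. The authors' deposited table of log2 ratios covers the same 8 arrays. Per the submitters' processing notes limma was used, and its version, settings and the normalization are not given in the sources used here. Over all probes its columns correlated with the scanner ratios at 0.967 to 0.994, with slopes of 0.938 to 0.983 over the brightest probes and medians of -0.0197 to 0.0117, which puts it on a log2 scale with AAPH on top. It served as an alternative.

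Intensities were processed in R 4.3.3 with limma 3.58.1: normexp (mean foreground, median background, offset 50), then loess within each array with control spots at weight 0. Aquantile scaling of these values gave the levels. A reading was above background when its log2 signal exceeded the median of 153 negative control spots by 3 median absolute deviations. Probes above background on 4 or more of 8 arrays in either RNA were kept, which left 32196 of 43794 probes. Opposite dye orientations were paired by the correlation of their deviations over the kept probes. The best of 24 pairings gave correlations between 0.146 and 0.56, over the 0.1 that was asked for, and every array was most alike to its partner. Over all probes swap pair 3 had 0.057, below that limit, so fits on single arrays are given too. The pairing comes from the data, not from the labels. Separate fertilizations are not stated for the pools, so each p-value covers only the spread among them, which may be technical.

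Ratios were tested against 0 with lmFit and eBayes over 4 swap pairs and adjusted by Benjamini-Hochberg over all kept probes. Only this fit was tested on simulated data, drawn as independent ratios, and not the background correction, normalization, filter or pairing. A gene was read at its brightest kept probe. Named genes were all members, MT4 and MTF1, the 4 of smallest p in each metal or NRF2 list, the 3 most alike by level, and neighbours in RefSeq. Members and lists were chosen with earlier results of these data known. Symbols come from a platform annotation: 1 symbol for 21790 probes, several for 0 and none for 22004. No build is stated for the probe design, so coordinates were left out.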

Additional observations from a re-analysis of the deposited data

Results flagged for a closer look

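Of 108 sets of 4 values screened (the ratio, the AAPH level and the control level of each probe chosen by the rule for named genes), 1 held a swap pair far from the other 3. COX19 had a log2 ratio of 0.41 in swap pair 1 and of -0.45 to -0.31 in the others. Chance flags about 1 in 20 such sets, and none of those of the metallothionein probes held one.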

How the results depend on the processing

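MT1A was below 0 under 18 of 18 alternatives, between -0.69 and -0.46, with adjusted p from 0.024 to 0.553, and MT1E at its brightest probe under 17 of 17, between -0.44 and -0.18. MT3 was above 0 under 17 of 17. These counts say little about the signs. Fits that change only the filter, the variance or the model terms return the same mean ratio. Every swap pair of each of these probes had the sign of its mean, so subsets of pairs could not turn it. Only another background correction, foreground or normalization, the authors' table, and for MT1E the average of its probes, could have turned a sign. MT1A (-0.57) passed in 8 single arrays with a dye term and the swap pair as a replicate block, and both MT1A and MT1E (-0.31) with a dye term and no block, a fit added after the data were seen. With neither term, neither passed (adjusted p = 0.216 for MT1A and 0.0743 for MT1E). Leaving out each swap pair gave -0.69 to -0.48 for MT1A and -0.37 to -0.24 for MT1E, and no member passed. The count of probes past the threshold was 0 in the main analysis (4354 at an unadjusted p under 0.05), 66 with median foreground, 70 when all 8 arrays had to exceed background, 315 with the replicate block, 368 with single arrays and no block and 936 with a dye term and no block. The strict filter left only MT1A, so the median of members was -0.57 there, against -0.017 over slides 78 and 79, -0.24 over slide 26 and -0.062 with all kept probes averaged. Signs turned over slide 26 alone for MT2A (-0.034), CES1 (-0.00014), COX19 (0.042), GSR (-0.0104), NUDT21 (-0.0023) and SLC6A2 (0.0083), and with median centring for FTH1 (-0.0095) and OGFOD1 (-0.056). OGFOD1 was at -0.078 over slides 78 and 79 and ranged between -0.0397 and 0.143 without 1 swap pair, as MTF1 did between -0.0248 and 0.0904. SLC30A2 (-0.53) passed only in the fits with no block, which count both arrays of a swap pair as replicates. SLC39A13 (0.60) passed in each single-array fit. The cause of these changes was not tested. Dim signal limits MT1E, MT2A, MT3 and MTF1, the neighbours CES1, SLC6A2 and BBS2, and the copper handling genes COX19 and STEAP2.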
